A study of Mus musculus with 6 samples.

Results

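The genes of the respiratory chain were examined in bulk RNA sequencing of subcutaneous MCA205 tumors, a transplantable mouse fibrosarcoma. Members were chosen by name: the protein-coding rows for the nuclear-encoded subunits and assembly factors of complexes I to V (symbols that start with Nduf, Uqcr, Cox4 to Cox8, Atp5 and *Sdha* to *Sdhd*) and the 13 protein-coding genes of mitochondrial DNA. They make up 107 of the 54309 gene identifiers of the table, 94 of them nuclear and 13 mitochondrial. Female C57BL/6J mice aged 7 weeks were inoculated with 1000000 MCA205 cells on day 0. The control group (n = 3 tumors) drank milliQ water, and the FF-10101–treated group (n = 3 tumors) drank FF-10101, a covalent inhibitor of the receptor tyrosine kinases CSF1R and FLT3, at 0.1 mg/mL from day 1 until collection on day 8. Every tumor therefore comes from 1 cell line in 1 mouse strain. All 7 fibroblastic markers looked up were read in each group, and their summed level overlapped between the groups.

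The respiratory chain carries electrons from NADH (complex I) and succinate (complex II) through complex III and cytochrome c to oxygen at complex IV, and the proton gradient built on the way drives ATP synthesis at complex V. Complexes I, III, IV and V are built from proteins of both genomes. The mitochondrial genes encode core membrane subunits and are transcribed inside the organelle by their own polymerase, whereas most subunits are nuclear genes, translated in the cytoplasm and imported. Complex II is encoded in the nucleus alone. In solid tumors both the malignant cells and the infiltrating leukocytes contribute respiratory chain transcripts. In bulk tissue, fewer cells of a type and less RNA per cell cannot be told apart.

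Between 9143806 and 13258258 reads per tumor were recovered from the table. Values below are normalized counts, given for tumors 1, 2 and 3 of the control against those of the FF-10101–treated group (reads scaled by each tumor's size factor), and log2 fold changes are of log2(normalized count + 1), FF-10101–treated against control, from limma with Benjamini-Hochberg adjustment over 13963 genes with a mean of at least 10. Of all genes tested, 6 passed an adjusted p of 0.05, or 0.0430%, and none was a respiratory chain gene: 0 of the 103 members tested passed, whereas 34 nuclear members lower and 9 mitochondrial members higher had an unadjusted p under 0.05. That unadjusted threshold was passed in the lower direction by 7.49% and in the higher direction by 8.77% of all genes. The weight that limma estimated for control tumor 1 was the lowest, 0.139. Those of control tumor 3 and FF-10101–treated tumors 1 and 3 were also below 1 (0.406 to 0.859), and control tumor 2 (5.39) and FF-10101–treated tumor 2 (8.08) had the highest. Without control tumor 1, 1379 genes (9.88%) passed the adjusted threshold lower and 1672 (12.0%) higher in the FF-10101–treated tumors. Among the members 30 of 90 nuclear genes then passed, all lower, and 9 of 13 mitochondrial genes passed, all higher, so the members' calls depend on that tumor, while the nuclear median (−0.40) and the mitochondrial median (0.78) kept their signs.

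Most nuclear respiratory chain genes had lower and most mitochondrial ones higher levels in the FF-10101–treated tumors, although none passed the adjusted threshold. Of the 90 nuclear genes tested, 78 had a log2 fold change below 0, with a median of −0.35, beside a median of 0.020 over all genes tested. In 34 of them, or 37.8%, each of the 3 treated tumors was below each of the 3 control tumors, a pattern that 9.37% of all genes tested had. Nuclear transcripts are short, and with a trend in transcript length and GC content removed the median was −0.12 and 19 genes (21.1%) had this pattern, beside 8.28% of all genes. Without FF-10101–treated tumor 1 the count was 58 (64.4%, beside 19.3% of all genes), and without control tumor 2 it was 50 (55.6%, beside 12.4%). The opposite pattern was found in 2 nuclear genes (2.22%, beside 10.9% of all genes). Of the 13 mitochondrial genes, 11 had a log2 fold change above 0, with a median of 0.64, and 9, or 69.2%, were higher in each treated tumor than in each control tumor, beside 10.9% of all genes tested. The adjusted p of the 34 lower nuclear genes lay between 0.229 and 0.427 and that of the 9 higher mitochondrial genes between 0.229 and 0.294. An exact two-sided permutation test of a single gene cannot give a p below 0.1 with 3 tumors against 3, which is the value of every gene whose groups do not overlap.

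**Figure D1:**
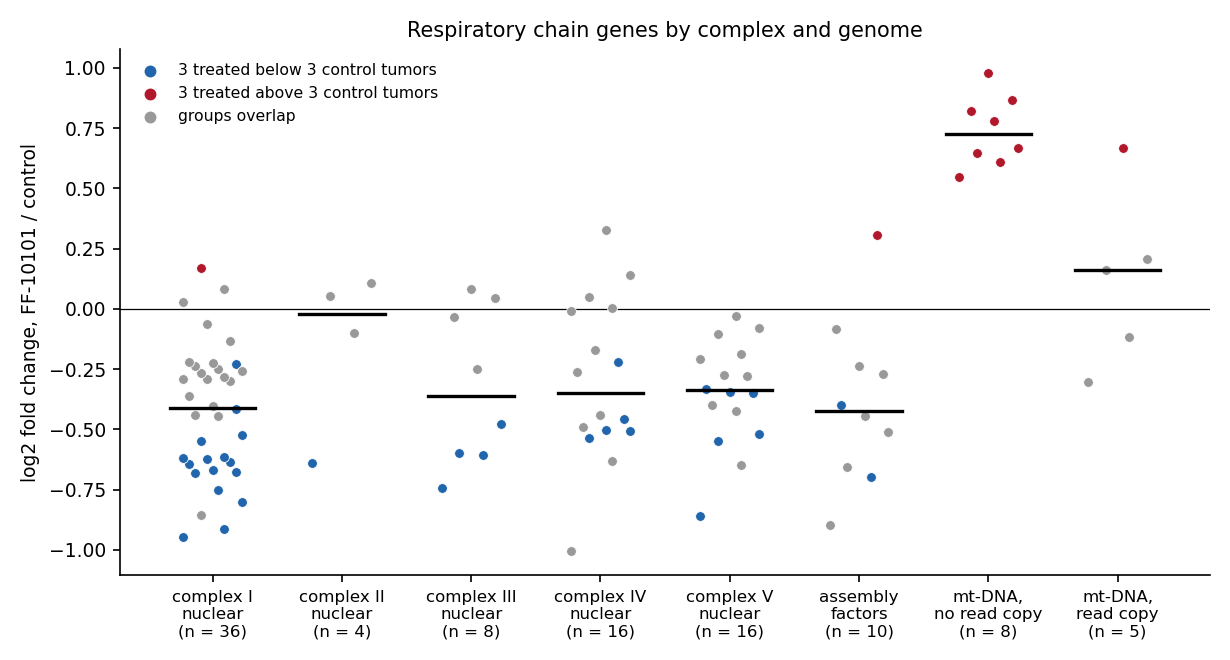
Log2 fold change (FF-10101–treated over control, n = 3 tumors each) of each respiratory chain gene tested, by complex and genome; points are genes, black bars are medians, and colors mark genes whose groups do not overlap. Nuclear genes of complexes I, III, IV and V have medians between −0.41 and −0.34, complex II −0.023, the 8 mitochondrial genes without a read nuclear copy 0.72 and the 5 with one 0.16.

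Complex I, the NADH dehydrogenase that feeds most electrons into the chain, had 36 nuclear subunits tested. Their median log2 fold change was −0.41, with 33 below 0. In 16 (44.4%) every treated tumor was lower than any control tumor, beside 9.37% of all genes. After removal of the length and GC trend the median was −0.15, with 12 lower (33.3%, beside 8.28% of all genes). *Ndufb2*, an accessory subunit of the membrane arm, had 379, 448 and 592 normalized counts in control tumors 1, 2 and 3 and 276, 232 and 219 in FF-10101–treated tumors 1, 2 and 3. The groups do not overlap, and the treated mean was 242 ± 29.8 against 473 ± 109 (SD, n = 3 each), which gives −0.95 as log2 fold change (SE 0.21, adjusted p = 0.229). *Ndufa6*, an accessory LYR-motif subunit of the matrix arm, had 889, 1116 and 1395 against 700, 673 and 556 (log2 fold change −0.80, SE 0.20). *Ndufs7*, the core subunit that holds the last iron-sulfur cluster before ubiquinone, had 950, 795 and 993 against 638, 494 and 356 (log2 fold change −0.91, SE 0.23). Both were lower in every treated tumor, with the lowest values in FF-10101–treated tumor 3. *Ndufa13*, also known as GRIM-19, had 1040.1, 1052 and 1395 normalized counts against 783, 753 and 716, a log2 fold change of −0.62.

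The 7 nuclear core subunits, which carry the flavin, the iron-sulfur clusters and the quinone site, had a median log2 fold change of −0.29, and the 29 accessory subunits had −0.44. Of the 7 core subunits 2 (28.6%) were lower in every treated tumor and 1 (14.3%) was higher. Of the 29 accessory subunits 14 (48.3%) were lower, beside 9.37% of all genes lower and 10.9% higher. With the length and GC trend removed, 1 core subunit (14.3%) and 11 accessory subunits (37.9%) were lower, beside 8.28% of all genes. *Ndufv1*, which binds NADH and the flavin, had 1023, 973 and 1258 normalized counts in the control tumors and 1048, 825 and 794 in the treated tumors, groups that overlap (log2 fold change −0.29). *Ndufs1*, the largest iron-sulfur subunit, went the other way: it had 580, 629 and 632 in the control tumors and 732, 681 and 661 in the treated tumors, each treated tumor above each control tumor by a small margin (log2 fold change 0.17, SE 0.14, adjusted p = 0.55). Transcripts of the core subunits had a median length of 1623 bases and those of the accessory subunits 732 bases.

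*Ndufb4*, an accessory subunit, has a processed pseudogene, *Ndufb4c*, whose sequence in words of 31 bases is found in full in *Ndufb4*, so that reads of the pair are uncertain. Summed, they had 559, 1039 and 1622 normalized counts in the control tumors and 571, 592 and 558 in the treated tumors, a log2 fold change of −0.77 (SE 0.34), with control tumor 1 between the treated values.

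Complex II, succinate dehydrogenase, which also works in the tricarboxylic acid cycle, had a median log2 fold change of −0.023 over its 4 genes. The iron-sulfur subunit *Sdhb* alone was lower in every treated tumor, with 1403, 1237 and 1775 normalized counts in the control and 955, 985 and 868 in the treated tumors (log2 fold change −0.64, SE 0.17, adjusted p = 0.229). The catalytic flavoprotein *Sdha* had 1946, 1801 and 1579.6 against 1866, 1922 and 1928, a log2 fold change of 0.11 (SE 0.14). The membrane anchors *Sdhc* and *Sdhd* had log2 fold changes of 0.054 (SE 0.17) and −0.10 (SE 0.15). In *Sdha*, *Sdhc* and *Sdhd* the groups overlap.

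Complex III, the cytochrome bc1 complex, had a nuclear median of −0.36 over 8 genes. Of these, 4 (50%) were lower in every treated tumor, beside 9.37% of all genes. After removal of that trend the median was −0.11 and 1 gene (12.5%, beside 8.28% of all genes) was lower, and *Uqcr11*, *Uqcr10* and *Uqcrq* had −0.23, −0.14 and −0.077. As counted, *Uqcr11* had 904, 1173 and 1608 normalized counts in the control and 843, 715 and 603 in the treated tumors (log2 fold change −0.74, SE 0.23), and *Uqcr10* had 1029, 962 and 1317 against 839, 731 and 599 (−0.61, SE 0.19). *Uqcrq* had 1916, 2155 and 2965 against 1783, 1377 and 1438 (−0.60, SE 0.20). These 3 encode small supernumerary subunits, and in each of them control tumor 3 was the highest of the 6 tumors. The core protein *Uqcrc1* had 2059.9, 1830 and 2387 against 1598, 1544 and 1355, with a log2 fold change of −0.48 (SE 0.16, adjusted p = 0.242). The Rieske iron-sulfur protein *Uqcrfs1* had 1376, 1283 and 1559.6 against 1332, 1104 and 1112, groups that overlap, with −0.25.

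Complex IV, cytochrome c oxidase, had a nuclear median of −0.35 over 16 genes, 12 of them below 0. In 5 (31.25%) every treated tumor was lower, beside 9.37% of all genes. With the length and GC trend removed the median was 0.028, with 7 below 0. Then 2 (12.5%) were lower and 2 (12.5%) higher in every treated tumor, beside 8.28% and 10.8% of all genes. *Cox4i1* and *Cox6a1* had −0.084 and −0.077 under this setting. *Cox4i1*, a regulatory subunit, had the highest level per length of the nuclear subunits (7706 normalized counts per kilobase in the control tumors). It had 5520.2, 5116 and 6586 normalized counts in the control and 4486, 4143 and 3862 in the treated tumors. Every treated tumor was lower (log2 fold change −0.46, SE 0.16, adjusted p = 0.253). *Cox6a1* had 2960.5, 2581 and 3229 against 2305, 1937 and 1820.4 (−0.53, SE 0.16), and *Cox7a2* 1093, 1239 and 1616 against 965, 909 and 868 (−0.51, SE 0.18). *Cox5b*, which binds zinc, had 1631, 1129 and 1364 against 1325, 1192 and 1116 and overlapping groups (−0.17). *Ndufa4*, first described as a complex I subunit and now placed in complex IV, had the lowest log2 fold change of all nuclear members, −1.01. Its control tumors lay far apart, with 799, 1472 and 2454 normalized counts against 817, 670 and 650 in the treated tumors. Control tumor 1 lay inside the treated range, and the value was −1.42 without that tumor (adjusted p = 0.00553) and −0.61 without control tumor 3.

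Isoforms of complex IV subunits that are restricted to certain tissues or conditions were read at low levels, between 22.9 and 88.4 normalized counts per kilobase in the control tumors beside a median of 1512 over 75 other nuclear subunits. *Cox6a2*, *Cox7a1* and *Cox8b*, the heart and skeletal muscle isoforms, had log2 fold changes of 0.14, −0.44 and −0.63 with SEs of 0.48, 0.45 and 0.49, and their groups overlap. *Cox6a2* had 96.8, 36.9 and 46.6 normalized counts in the control and 36.7, 99.9 and 61.3 in the treated tumors, highest in control tumor 1 and FF-10101–treated tumor 2. Those 2 tumors were also among the 3 with the highest summed level of 14 skeletal muscle markers, which was 9369.98, 4416.36 and 6574.52 normalized counts in control tumors 1, 2 and 3 and 4241.75, 15828.4 and 9475.3 in the treated tumors. The other muscle isoforms had a different order. *Cox7a1* was highest in control tumor 3 (32.2) and FF-10101–treated tumor 3 (31.1). *Cox8b* was highest in FF-10101–treated tumor 2 (32.6), and its lowest control tumor was control tumor 1 (24.8). *Cox4i2*, the hypoxia-induced isoform of *Cox4i1*, had 15.8, 14.1 and 20.0 against 12.2, 22.8 and 17.8, groups that overlap. *Ndufa4l2*, a HIF target related to *Ndufa4*, had 97.9, 64.1 and 57.7 against 49.6, 101 and 143 (0.33, SE 0.41). The testis isoform *Cox6b2* had 12, 6 and 3 reads in the control and 9, 1 and 7 reads in the treated tumors, below the minimum for testing, and *Cox7b2* and *Cox8c* were not read, which allows up to 3 reads in a tumor.

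Complex V, the ATP synthase, was the complex in which all nuclear subunits tested, 16 of 16, had a log2 fold change below 0. Their median was −0.34, and 6 (37.5%) were lower in every treated tumor, beside 9.37% of all genes. Once that trend was removed 12 of 16 were below 0, the median was −0.079, 2 (12.5%, beside 8.28% of all genes) were lower, and *Atp5e* and *Atp5o* had −0.40 and −0.057. The value of *Atp5a1*, near 0, was above 0 under 5 other settings. *Atp5e*, the epsilon subunit of the central stalk, had 2155, 2474 and 3268 normalized counts in the control and 1511, 1438 and 1338 in the treated tumors, the widest separation among the nuclear members relative to its error (log2 fold change −0.86, SE 0.18, adjusted p = 0.229). Of the genes for subunit c of the rotor ring, *Atp5g3* had 3133, 2685 and 3055 against 2391, 2136 and 1712 (−0.52, SE 0.17) and *Atp5g1* 1499, 1446 and 1854 against 1369, 991 and 949 (−0.55, SE 0.19). The third of these genes, *Atp5g2*, shares its reads with the pseudogene *Gm10175*, to which between 88.7% and 91.2% of the summed counts were assigned, and the sum had a log2 fold change of −0.12 (SE 0.17) with groups that overlap. *Atp5o*, in the stalk that holds the catalytic head, had 1676, 1662 and 1785 against 1414, 1323 and 1296 (−0.35, SE 0.13). In the catalytic head the differences were smaller. *Atp5b* had 8908, 9565 and 10608 against 8950.1, 8158 and 8007 (−0.21, SE 0.16), and *Atp5a1* 7599, 5917 and 5700.4 against 6777, 6059 and 5871 (−0.03, SE 0.17), both with groups that overlap.

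The same names covered 10 factors that build the complexes or join them but are not counted as subunits here. Their median was −0.42, with 9 below 0. In 2 (20%) every treated tumor was lower, beside 9.37% of all genes. Without control tumor 1 this count was 7 (70%, beside 25.7% of all genes). *Ndufaf1*, an assembly factor of the complex I membrane arm, was the exception, with 127, 116 and 91.0 normalized counts in the control tumors and 137, 137 and 137 in the treated tumors (log2 fold change 0.31, SE 0.21, adjusted p = 0.488). *Ndufaf1* and *Ndufs1* were the 2 nuclear members higher in every treated tumor.

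Since many nuclear members were lower together, their promoters were read from RefSeq (build GRCm38.p6; 250 bases before to 50 after the start). Windows were found for 74 of 93 nuclear symbols. The NRF1 core, searched as GCGCANGC on both strands, was present in 33.8% of these genes, beside 9.95% of all 32851 windows and 13.1% of the windows of other protein-coding genes. The ETS site bound by GABPA, CCGGAAG, was in 24.3% (8.86% of all windows and 11.5% of other protein-coding genes), the YY1 motif AAGATGGC in 13.5% (2.75% and 3.02%) and the ERRα motif TNAAGGTCA in 4.05% (1.28% and 1.02%). The median log2 fold change was −0.48 for the 25 tested genes with the NRF1 core and −0.40 for the 47 without it, with 13 and 19 lower in every treated tumor, and −0.37 for the 18 with the ETS motif and −0.43 for the 54 without. Of the complexes, 4 windows with the NRF1 core are shown, each from the subunit with the highest level per length in its complex among those with the core, with NRF1 and ETS motifs in capitals. They lie at chr17:24724374-24724673 (*Ndufb10*), chr10:80406772-80407071 (*Uqcr11*), chr5:115348909-115349208 (*Cox6a1*) and chr9:44920693-44920992 (*Atp5l*), all on the minus strand, and are written 5′ to 3′ in the direction of the gene.
Ndufb10: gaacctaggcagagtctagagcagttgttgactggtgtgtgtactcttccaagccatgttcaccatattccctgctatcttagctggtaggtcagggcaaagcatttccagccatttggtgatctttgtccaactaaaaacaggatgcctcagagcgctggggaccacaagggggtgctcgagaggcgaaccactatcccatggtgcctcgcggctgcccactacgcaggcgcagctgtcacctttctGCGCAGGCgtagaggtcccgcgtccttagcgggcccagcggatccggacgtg
Uqcr11: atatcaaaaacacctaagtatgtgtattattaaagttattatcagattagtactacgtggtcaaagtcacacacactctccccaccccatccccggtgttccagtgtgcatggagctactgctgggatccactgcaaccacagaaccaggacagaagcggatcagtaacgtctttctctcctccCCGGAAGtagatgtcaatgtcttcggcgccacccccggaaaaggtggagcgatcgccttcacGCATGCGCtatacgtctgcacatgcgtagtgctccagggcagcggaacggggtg
Cox6a1: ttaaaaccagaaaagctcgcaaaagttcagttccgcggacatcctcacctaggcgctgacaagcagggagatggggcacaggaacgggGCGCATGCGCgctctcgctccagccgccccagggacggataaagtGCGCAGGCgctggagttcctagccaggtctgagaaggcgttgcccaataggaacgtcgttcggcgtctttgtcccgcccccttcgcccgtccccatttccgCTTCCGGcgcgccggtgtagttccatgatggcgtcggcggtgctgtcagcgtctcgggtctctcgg
Atp5l: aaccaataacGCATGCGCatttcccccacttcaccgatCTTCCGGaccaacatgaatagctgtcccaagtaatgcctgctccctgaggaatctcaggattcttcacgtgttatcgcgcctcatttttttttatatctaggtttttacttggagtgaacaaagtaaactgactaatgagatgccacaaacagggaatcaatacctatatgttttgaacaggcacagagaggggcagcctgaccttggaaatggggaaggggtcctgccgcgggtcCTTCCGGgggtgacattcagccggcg
The NRF1 core begins 2 bases before the start in *Ndufb10* and 4 bases before it in *Uqcr11*, where an ETS motif begins 66 bases before the start. In *Cox6a1* it occurs 3 times, at 162, 160 and 117 bases before the start, the first 2 overlapping, and an ETS motif follows at 16. In *Atp5l* it begins 240 bases before the start, beside an ETS motif at 212, and a second ETS motif begins at base 25 after the start. The log2 fold changes of the 4 genes were −0.25, −0.74, −0.53 and −0.40. A match of letters is a description and not a bound site.

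The median level per length of the mitochondrial genes in the control tumors was 12989 normalized counts per kilobase, beside 1512 for the nuclear subunits without isoforms. The ranges overlap, with mitochondrial genes from 4387 for *mt-Nd4l* to 39872 for *mt-Co1* and nuclear subunits up to 7706. Of the 7 genes for complex I subunits, 6 (85.7%) were higher in every treated tumor, beside 10.9% of all genes. *mt-Nd4l* had 1482, 1602 and 824 normalized counts in the control and 2000.2, 2669.5 and 2804 in the treated tumors, a log2 fold change of 0.98 (SE 0.27, adjusted p = 0.229). *mt-Nd4*, which shares a transcript with *mt-Nd4l*, had 14446, 11658 and 7873 against 18316, 21269.5 and 18817 (0.82, SE 0.25). In both the lowest tumor was control tumor 3 and the groups do not overlap. *mt-Nd1*, next to the ribosomal RNA genes, had 18664, 13888 and 12531 against 20530.5, 23221 and 21270.5 (0.55, SE 0.21), *mt-Nd2* had 8417, 6478 and 5321 against 9450.4, 10766 and 10137 (0.61, SE 0.20), and *mt-Nd5* had 8887, 10084 and 6255 against 10630.3, 15168 and 13294 (0.64, SE 0.23). Control tumor 1 was the highest control tumor in *mt-Nd1* and *mt-Nd2* and control tumor 2 in *mt-Nd5*. *mt-Nd6*, the single protein gene of the light strand, had 3952, 3191 and 2793 against 5673, 6222 and 5039.9 (0.78, SE 0.18). The library kit does not mark strand, so its reads cannot be told apart from antisense reads of the heavy strand transcript.

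*mt-Cytb*, the mitochondrial subunit of complex III, had 17256, 15792 and 11529.5 normalized counts in the control and 21892, 24739 and 23332 in the treated tumors (log2 fold change 0.67, SE 0.21, adjusted p = 0.235). *mt-Co1*, the catalytic subunit of complex IV and the most abundant member, had 72806, 65737 and 46264 against 84675, 106726 and 98005 (0.67, SE 0.27). *mt-Atp8* of complex V had 3968, 3694 and 2698 against 5571, 6684 and 6461 (0.87, SE 0.19). All 3 were higher in every treated tumor. The remaining 4 mitochondrial genes had groups that overlap: *mt-Co2* and *mt-Co3* of complex IV with log2 fold changes of 0.21 and 0.16, *mt-Nd3* with −0.12 and *mt-Atp6* with −0.30. Without control tumor 1, *mt-Co2* had 0.55 (adjusted p = 0.0295), *mt-Co3* 0.31, *mt-Nd3* −0.29 and *mt-Atp6* −0.013. *mt-Atp6* overlaps *mt-Atp8* on the same transcript, and still its counts were 28923, 18709 and 13424 in the control and 16035, 16249.6 and 14861 in the treated tumors.

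**Figure D2:**
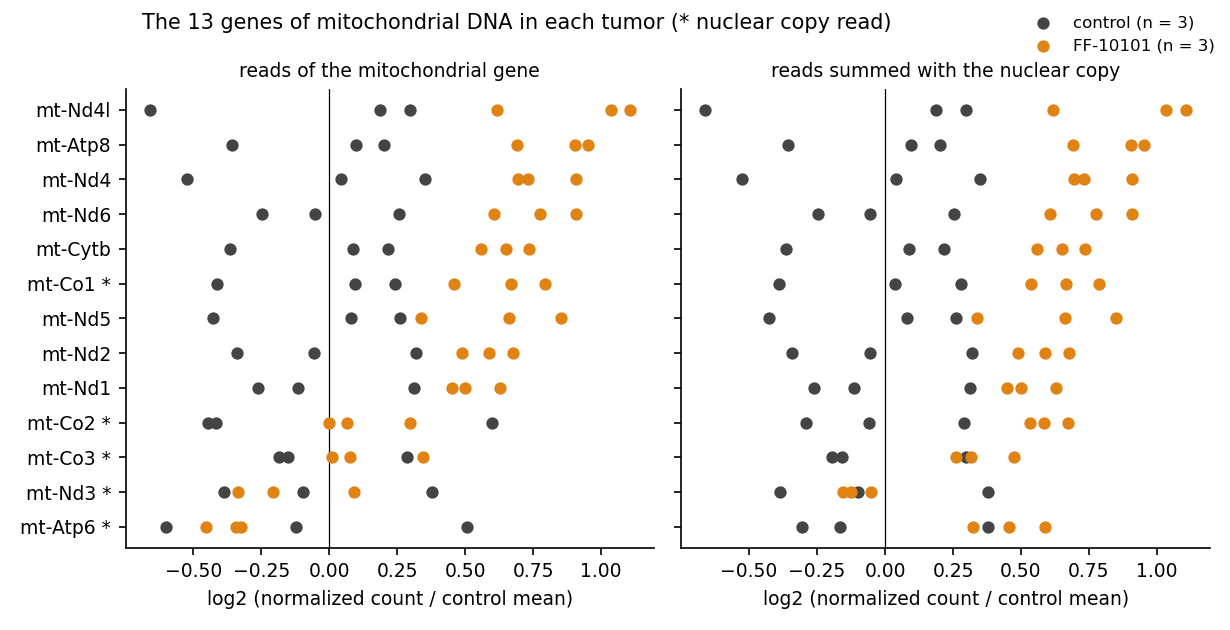
Each of the 13 mitochondrial genes in each tumor, as log2 of the normalized count over the mean of the 3 control tumors (x axis), for the reads of the gene (left) and for the reads summed with its nuclear copy (right); asterisks mark the 5 genes with a copy that has reads. As counted, 9 genes have all treated tumors to the right of all control tumors; summed, mt-Co2 joins them, while mt-Co3, mt-Atp6 and mt-Nd3 overlap.

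The 4 mitochondrial genes that overlap are among 5 whose sequence is also annotated in the nucleus and had reads there. A stretch of mitochondrial DNA inserted in chromosome 1 is annotated as the unprocessed pseudogenes *Gm29216* (*mt-Co1*), *Gm28661* (*mt-Co2*), *Gm10925* (*mt-Atp6*), *Gm28437* (*mt-Co3*) and *Gm28438* (*mt-Nd3*). In the GENCODE vM21 transcripts, *Gm10925* is identical to *mt-Atp6* over all 678 of its bases, *Gm28661* to *mt-Co2* over 681 and *Gm28437* to *mt-Co3* over 783, and *Gm28438* differs from *mt-Nd3* in 1 of 345. *Gm29216* covers 492 of the 1545 bases of *mt-Co1* with 6 differences. The ends of *mt-Atp6* (chrM:7927-8607, plus strand, GRCm38) and *Gm10925* (chr1:24613974-24614651, minus strand), of *mt-Co2* (chrM:7013-7696) and *Gm28661* (chr1:24614885-24615565, minus strand), and the starts of *mt-Nd3* (chrM:9459-9806) and *Gm28438* (chr1:24612775-24613119, minus strand) are shown because they hold all the bases that tell these pairs apart, printed in capitals, apart from the last 3 of *mt-Nd3*.
*mt-Atp6*, bases 622 to 681: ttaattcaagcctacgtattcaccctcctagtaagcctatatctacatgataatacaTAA
*Gm10925*, bases 622 to 678: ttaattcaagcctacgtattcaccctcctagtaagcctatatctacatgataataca
*mt-Co2*, bases 625 to 684: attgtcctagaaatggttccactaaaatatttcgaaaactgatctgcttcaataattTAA
*Gm28661*, bases 625 to 681: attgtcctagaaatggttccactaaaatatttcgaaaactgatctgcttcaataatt
*mt-Nd3*, bases 1 to 60: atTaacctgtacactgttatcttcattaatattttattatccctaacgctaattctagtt
*Gm28438*, bases 1 to 60: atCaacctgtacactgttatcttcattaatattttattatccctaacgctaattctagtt
A fragment inside the shared stretch fits both genes equally well, and Salmon divides such fragments by estimation.

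The share of the summed counts assigned to the copy was higher in every treated tumor in 2 of the 5 pairs. For *mt-Atp6* it was 14.6%, 19.5% and 36.3% in the control tumors and 59.0%, 54.5% and 54.4% in the treated tumors, and for *mt-Co3* it was 5.01%, 5.90% and 1.43% against 12.3%, 22.6% and 15.6%. The copy *Gm10925* thus had 4935, 4530.5 and 7647 normalized counts in the control and 23120.3, 19459.8 and 17715 in the treated tumors. For *mt-Co2* the copy took most of the counts in every tumor, between 61.4% and 78.5%, with groups that overlap, and the shares of *mt-Co1* and *mt-Nd3* also overlap. With the counts of each pair summed, *mt-Atp6* had 33858, 23239 and 21071 in the control and 39156, 35709 and 32576 in the treated tumors, and its log2 fold change went from −0.30 to 0.49 (SE 0.24), with control tumor 1 inside the treated range. *mt-Co2* summed had 31487, 24718 and 21027 against 38588, 41010.4 and 37211 (0.62, SE 0.22), now higher in every treated tumor. *mt-Co3* summed had 37542, 27308 and 26676 against 42350.3, 37957 and 36516 (0.37, SE 0.22), with control tumor 1 inside the treated range. *mt-Nd3* summed remained near 0, at −0.075 (SE 0.21). Summed, 12 of the 13 mitochondrial genes had a log2 fold change above 0 and 10 were higher in every treated tumor, beside 10.9% of the 13956 genes tested after summing. The 8 genes without a read copy (for *mt-Nd4* and *mt-Nd4l* a copy is annotated but had 0 reads) were all higher in every treated tumor, with log2 fold changes from 0.55 to 0.98.

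**Figure D3:**
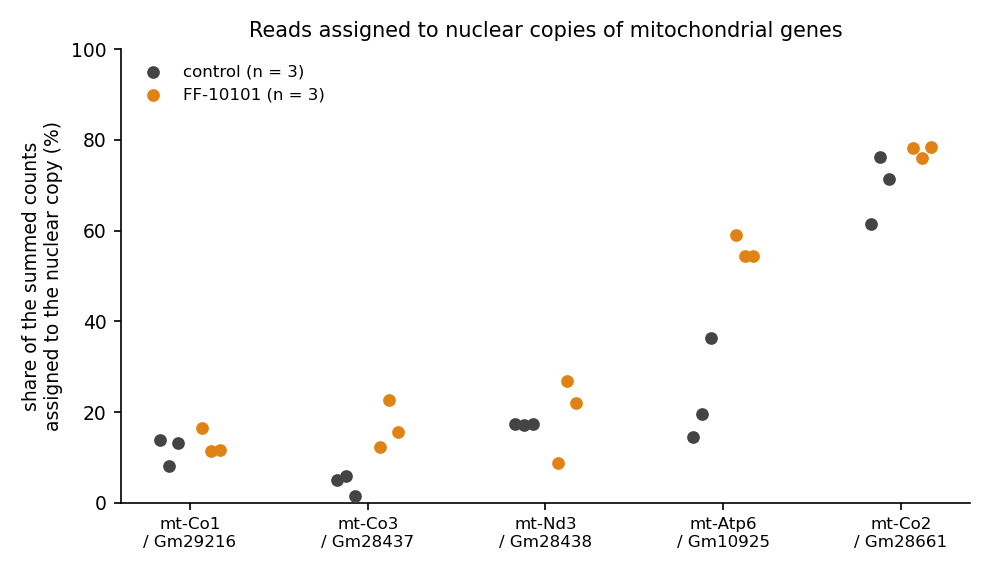
Percent of the summed normalized counts of a mitochondrial gene and its nuclear copy that was assigned to the copy, in each tumor (points; n = 3 per group). The treated tumors are above the control tumors for mt-Atp6 (54.4% to 59.0% against 14.6% to 36.3%) and mt-Co3, and the groups overlap for mt-Co1, mt-Nd3 and mt-Co2.

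The comparison of the 2 genomes can be made inside each tumor, where it does not depend on the scaling between tumors. The median level of the nuclear genes, relative to the mean of each gene over the 6 tumors, was 0.12, 0.074 and 0.40 on the log2 scale in control tumors 1, 2 and 3 and −0.044, −0.20 and −0.31 in the treated tumors. That of the mitochondrial genes was −0.066, −0.25 and −0.62 against 0.20, 0.42 and 0.31. Nuclear minus mitochondrial, the values were 0.19, 0.32 and 1.02 in the control tumors and −0.24, −0.63 and −0.62 in the treated tumors, so that the groups do not overlap and differ by −1.01 (0.51 ± 0.45 against −0.50 ± 0.22, SD, n = 3 each). With the nuclear copies summed the difference was −1.03. The control tumors were far apart, and control tumor 3 had both the highest nuclear and the lowest mitochondrial level. Without control tumor 3 the difference was −0.74, and without control tumor 1 it was −1.16.

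**Figure D4:**
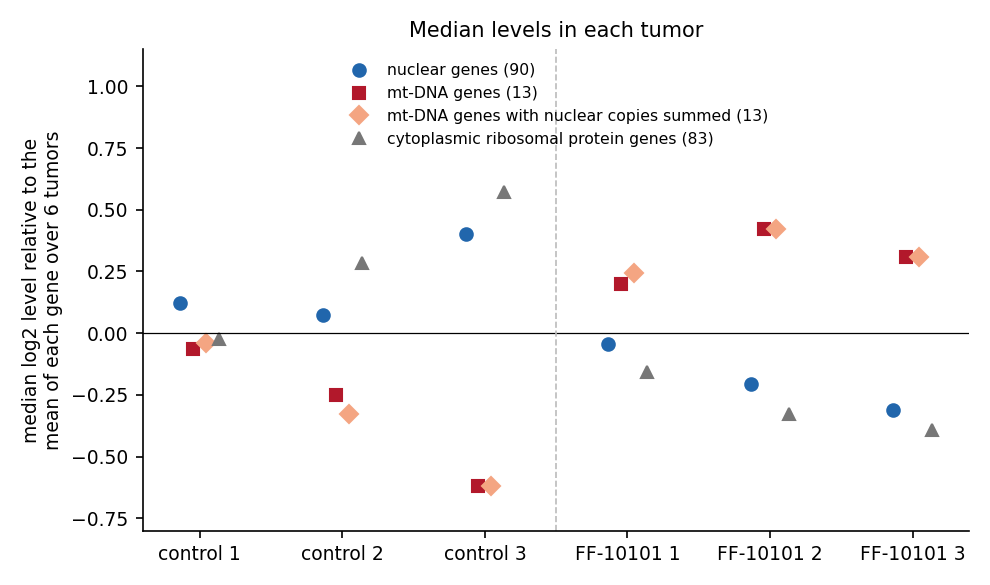
Median log2 level of each gene group in each tumor, relative to the mean of each gene over the 6 tumors (y axis), for 90 nuclear respiratory chain genes, 13 mitochondrial genes as counted and with nuclear copies summed, and 83 cytoplasmic ribosomal protein genes. The nuclear genes lie between 0.074 and 0.40 in the control and between −0.31 and −0.044 in the treated tumors, and the mitochondrial genes are between −0.62 and −0.066 in the control and between 0.20 and 0.42 in the treated tumors.

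Within the complexes made from both genomes the nuclear and mitochondrial values had opposite signs as counted, but in complex IV both medians were above 0 with the length and GC trend removed (0.028 and 0.36). In complex I the nuclear median level differed between the groups by −0.44 and the mitochondrial one by 0.70, in complex III by −0.34 and 0.67, in complex IV by −0.38 and 0.30, and in complex V by −0.32 and 0.28. The mitochondrial values of complexes IV and V rest on 3 and 2 genes, of which 4 have a read nuclear copy, and their groups overlap. With copies summed, the median mitochondrial log2 fold changes were 0.62 in complex IV and 0.68 in complex V. As a share of all reads, the 13 mitochondrial genes took 2.12%, 1.88% and 1.45% in the control tumors and 2.42%, 2.75% and 2.51% in the treated tumors, and the 94 nuclear genes 1.12%, 1.19% and 1.43% against 1.09%, 0.992% and 0.930%. The mitochondrial ribosomal RNAs *mt-Rnr1* and *mt-Rnr2*, the RNA of the organelle's own ribosome, took 0.0857%, 0.0453% and 0.0437% against 0.106%, 0.107% and 0.113%.

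Other genes of the pathway were taken from 9 lists. *Cycs*, cytochrome c itself, had 938, 1267 and 1489.7 normalized counts in the control and 805, 711 and 612 in the treated tumors (log2 fold change −0.78, SE 0.20), and *Cyc1*, the cytochrome c1 of complex III, had −0.55. Of 42 assembly factors outside the names used here, 32 were below 0 (median −0.19). In every treated tumor 11 (26.2%) were lower and 1 (2.38%) was higher, beside 9.37% and 10.9% of all genes. The count lower was 5 (11.9%, beside 8.28% of all genes) with the length and GC trend removed. Without control tumor 1 it was 20 (47.6%, beside 25.7% of all genes). The machinery that transcribes and maintains mitochondrial RNA had a median of −0.066 over 25 genes, 3 of them (12%) lower and 1 (4%) higher in every treated tumor, beside 9.37% and 10.9% of all genes. Without control tumor 1 the median was −0.22 and 11 (44%) were lower, beside 25.7% of all genes. The lower ones were the mitochondrial RNA polymerase *Polrmt* (−0.42), the elongation factor *Tefm* (−0.58) and the rRNA methyltransferase *Tfb1m* (−0.42), and *Tfam*, which packages and activates mitochondrial DNA, had −0.058. The higher one, *Mterf1b*, has a close copy in *Mterf1a*, and its counts are uncertain. Genes that copy and repair mitochondrial DNA had a median of −0.067 over 12. Of these, 1 (8.33%), *Rnaseh1* (−0.51), was lower in every treated tumor, beside 9.37% of all genes. Without control tumor 1, 4 (33.3%) were, beside 25.7% of all genes. The 10 nuclear regulators tested had a median of 0.028 (−0.0072 without control tumor 1). Of these, 3 (30%, beside 9.37% of all genes) were lower in every treated tumor: *Esrra* (−0.34), *Gabpb1* (−0.25) and *Yy1* (−0.19). *Nrf1* (−0.30) and *Gabpa* (0.15) had groups that overlap. Without control tumor 1, 4 of the regulators (40%) were lower, beside 25.7% of all genes.

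The tricarboxylic acid cycle had a median of −0.11 over 17 genes. Of these, 3 (17.6%) were lower in every treated tumor, beside 9.37% of all genes. Glycolysis had −0.069 over 16 genes, with 0 lower and 1 (6.25%) higher, beside 10.9% of all genes higher. Without control tumor 1 the medians were −0.20 and 0.056. In that setting 7 genes of the cycle (41.2%) were lower in every treated tumor, beside 25.7% of all genes. For glycolysis 4 (25%) were higher, beside 28.4% of all genes. Of 78 mitochondrial ribosomal protein genes, 75 had a log2 fold change below 0 with a median of −0.37, and 22 (28.2%) were lower in every treated tumor, beside 9.37% of all genes. Their median level per tumor overlapped between the groups. Of 83 cytoplasmic ones, 77 were below 0 with a median of −0.58, and 57 (68.7%) were lower in every treated tumor. Of both lists 0 genes passed the adjusted threshold. With the length and GC trend removed the medians were −0.22 and −0.28, with 14 (17.9%) and 29 (34.9%) lower, beside 8.28% of all genes. Without control tumor 1 the counts were 52 (66.7%) and 72 (86.7%), beside 25.7% of all genes. The cytoplasmic ribosomal protein genes, which have no part in respiration, were thus further from 0 than the nuclear respiratory chain genes, and many of them have processed pseudogenes. Their median level was highest in control tumor 3 (0.57), as was that of the nuclear respiratory chain genes.

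Transcript length differed along with these values. Nuclear respiratory chain transcripts are short, with a median of 823.5 bases against 2876.5 for all protein-coding genes tested, and short protein-coding genes as a whole were lower in the treated tumors. Among genes with at most 700 bases, the median was −0.45 for 36 nuclear respiratory chain genes and −0.35 for 251 other protein-coding genes, and 41.7% and 35.1% were lower in every treated tumor. From 700 to 1000 bases the medians were −0.42 (19 genes) and −0.24 (545 genes), with 47.4% and 25.9% lower, and from 1000 to 2000 bases −0.29 (28 genes) and −0.11 (2908 genes), with 32.1% and 15.2% lower. From 2000 to 4000 bases they were 0.012 (6 genes) and 0.0098 (5328 genes). The nuclear member above 4000 bases, *Atp5g1*, had −0.55. Across genes, log2 fold change and length had a Spearman rho of 0.30 over the 90 nuclear members and 0.26 over 12950 other protein-coding genes, which share the same 6 libraries and are not independent. With a smooth trend in length and GC content removed from each tumor, the nuclear median went from −0.35 to −0.12, with 60 of 90 below 0, and 19 nuclear genes went from below to above 0. A different 19 nuclear genes were lower in every treated tumor under this setting, 12 of them in complex I. The medians of core and accessory complex I subunits were then −0.14 and −0.17. The mitochondrial median was 0.68 under the same correction, although mitochondrial transcripts are short as well (median 784 bases). The cause of the length trend was not tested.

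**Figure D5:**
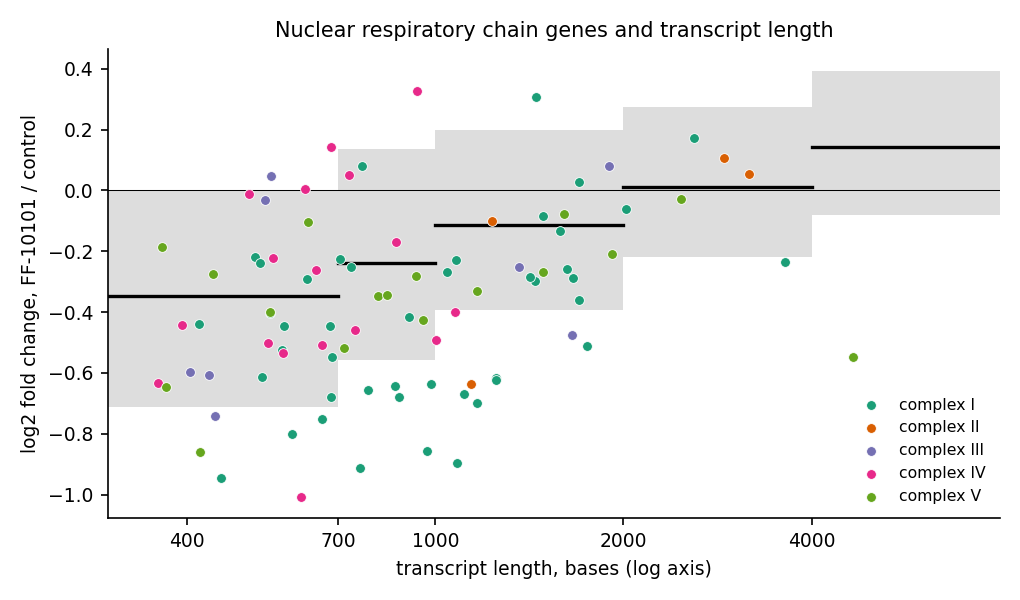
Log2 fold change of each of the 90 nuclear respiratory chain genes (points, colored by complex) against transcript length in bases (log axis); black bars and gray boxes give the median and the middle 50% of the other protein-coding genes in each length class. The medians of the other genes go from −0.35 at up to 700 bases to 0.14 above 4000 bases, and the medians of the nuclear respiratory chain genes are below them up to 2000 bases.

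Markers of several cell types also differed between the groups. The summed level of 9 macrophage markers was between 66788.8 and 104170 normalized counts in the control and between 35327.8 and 55832.4 in the treated tumors, 5 of the 9 lower in every treated tumor and none at 0. That of 6 neutrophil markers was between 1926.77 and 2275.56 against 2736.85 and 3196.2, with 3 of the 6 higher in every treated tumor, and that of 6 pericyte markers between 1284.51 and 2298.59 against 2915.91 and 3183.04, with 0 of the 6 higher in every treated tumor. Their part in the levels of the respiratory chain genes was not tested.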

How the data were processed

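Total RNA of 6 subcutaneous MCA205 tumors (3 control and 3 FF-10101–treated, listed as separate tumors, so that p-values measure the spread between them) was made into libraries with a kit that does not mark strand and sequenced. According to the submitters' processing notes, the authors trimmed the reads with fastp 0.19.5, quantified transcripts with Salmon 1.5.1 and normalized with DESeq2 1.22.1, and the deposited values are on a log2 scale, in the form of a variance-stabilizing transformation. The transformation was inverted for all 325854 values, which gave whole reads for 100% of them (largest gap 4.16e-09, tolerance 1e-06). The deposited Ensembl identifiers were named from GENCODE vM21 (51484 of 54309); 24056 had a read. limma 3.58.1 (R 4.3.3) was fitted to log2(normalized count + 1) of 13963 genes (mean 10 or higher), with a mean–variance trend, two-sided, with Benjamini-Hochberg adjustment over all of them. "Lower in every treated tumor" means that the highest treated value was below the lowest control value. Genes sharing over 90% of their words of 31 bases with a member were treated as copies. The fit was tested on simulated data.

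The members and lists were chosen with earlier results of these data known, so no test was run over a list. Named genes are all mitochondrial members, the 4 subunits of each complex with the smallest p, preset core subunits and isoforms, nuclear members higher in every treated tumor, and members with a copy that had reads. Alternatives changed the pseudocount, minimum, scaling, trend, weights, block, copies and length or GC trend, and left out each tumor. Counting error alone is covered by the limit of 3 reads for a gene without reads.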

Additional observations from a re-analysis of the deposited data

How the results depend on the processing

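The medians of the nuclear members (−0.42 to −0.12) and of the mitochondrial members (0.45 to 0.78) and their difference inside each tumor (−1.16 to −0.74) kept their sign under every alternative run. The count of genes with an adjusted p under 0.05 (6, limma) was 8365 with array weights, 17 with no minimum count, 3 with a mean of at least 50, 1 with pseudogenes and predicted genes left out, 1 with the replicate block and 1 to 3051 when a tumor was left out, 3051 being without control tumor 1. Same-numbered tumors did not deviate together (correlations −0.29, −0.040 and −0.28). With 3 tumors per group these correlations depend on each other, so they cannot decide whether the numbers pair the tumors. Members with an adjusted p under 0.05 were 75 with array weights (72.8%, beside 59.9% of all genes) and 0 to 39 when a tumor was left out (39, or 37.9%, without control tumor 1, beside 21.9% of all genes). Calls with array weights rest largely on control tumor 2 and FF-10101–treated tumor 2, which had weights of 5.39 and 8.08. Of the 47 members named by rule, 35 passed with array weights and 21 without control tumor 1. Nuclear members lower in every treated tumor were 34 to 58 when a tumor was left out (58, or 64.4%, without FF-10101–treated tumor 1, beside 19.3% of all genes then, and 34, or 37.8%, without control tumor 3, beside 11.3%).

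With the length and GC trend removed, that count was 19, and the medians were −0.12 for the nuclear members, −0.15 for complex I, −0.11 for complex III, 0.028 for complex IV and −0.079 for complex V. The complex IV median was −0.16 with array weights. The complex II median was −0.14 as a mean over its genes and −0.15 to 0.042 when a tumor was left out, and that of complex V −0.39 to −0.22. With the length and GC trend removed, 20 of 90 nuclear and 1 of 13 mitochondrial members changed sign. Of the members named by rule, these were *mt-Nd3* (0.084), *Sdhc* (−0.0031), *Sdhd* (0.033), *Cox5b* (0.041), *Cox7a1* (0.038) and *Atp5g2* (0.21), and with array weights *Sdhd* (0.038), *Cox5b* (0.042), *Cox8b* (0.13) and *Atp5a1* (0.033). With quantile normalization they were *Cox4i2* (−0.27), *Cox6a2* (−0.025) and *Atp5a1* (0.051), with scaling to reads outside mitochondrial DNA *Atp5a1* (0.0071), and with copies summed *mt-Atp6* (0.49). When a tumor was left out, the ranges that spanned 0 were −0.29 to 0.091 for *mt-Nd3*, −0.092 to 0.19 for *Sdhc*, −0.15 to 0.28 for *Cox4i2*, −0.21 to 0.54 for *Cox6a2*, −0.0090 to 0.75 for *Ndufa4l2* and −0.11 to 0.10 for *Atp5a1*. Apart from the length, GC and copy corrections, whose construction shows what they remove, the cause was not tested.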

Other observations

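The other marker lists did not separate the groups. Summed normalized counts of 7 adipocyte markers were between 109.757 and 357.178 in the control and between 72.5542 and 526.208 in the treated tumors, and those of 4 brown adipocyte markers, a cell type rich in respiratory chain proteins, between 15.7592 and 46.5885 against 5.3461 and 33.7769. Of 7 keratinocyte markers the sum was highest in FF-10101–treated tumor 1 (1072.27) and between 44.5548 and 199.665 in the control tumors. Of 6 T cell markers it was between 793.113 and 2253.57 against 1100.53 and 1985.72. Of 6 endothelial markers it was between 1334.43 and 5008.05 against 4807.67 and 5477.19, with control tumor 1 the highest control tumor. Of 4 sperm markers it was at most 3.55546 in any tumor, with *Tnp1* and *Acrv1* at 0, beside the reads of the testis isoform *Cox6b2*. Fibroblastic tumor markers summed to between 64743.6 and 208550 against 153429 and 249567, 2 of 7 higher in every treated tumor. Control tumor 1 had the highest sum of the control tumors for macrophage, T cell, endothelial, pericyte, skeletal muscle and fibroblastic markers.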
